A study of Mus musculus with 6 samples.

Results

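Expression of 10 genes of the germ line and of the piRNA pathway was followed in mouse embryonic stem (ES) cells without the TET enzymes: Dazl, Ddx4, Stk31, Tex101, Piwil2, Mael, Mov10l1, Asz1, Tdrd1 and Tdrd9. They were taken by gene name, as every probe with that name on the arrays, which gave 10 probes, 1 for each gene, of 55681 probes in all. Of these, 8 were bright enough to be tested, among 21562 tested genes. In cells without TET enzymes (TKO), 5 of the 8 tested genes fell relative to wild-type cells (WT) and 1 rose. Of all tested genes, 29.9% were called lower and 59.7% in either direction, and the calls in either direction among the 8 stand near that background. The RNA helicase gene Mov10l1 was 3.93-fold lower and the Tudor domain gene Stk31 was 2.51-fold lower. Mael was at 60.8% of its WT level and Tex101 at 83.5%, though the call of Tex101 was lost under some alternative treatments of the data. The Tudor domain gene Tdrd9, dim in TKO cells, was at least 2.24-fold lower on the scanner's processed signal. It was bright enough to be tested through its WT arrays alone, so it lends no support to the count of 5. Ddx4, the helicase gene also called Vasa, went the other way and was 2.07-fold higher in TKO cells. Dazl and Piwil2 did not pass the test, and Tdrd1 and Asz1 were too dim to test.

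The TKO group was 3 dishes of ES cells in which Tet1, Tet2 and Tet3 had been knocked out, made from the BJ FF2 ES line, and the WT group was 3 dishes of that same line with no knockout. Per the labels, both groups were kept in 2i medium on inactivated mouse embryonic feeder cells, were then moved to matrigel without feeders, and were grown at the same time, with 1 dish used for each sample. The age and sex of the source were not given in the sources used here, nor was it stated whether the TKO dishes came from 1 clone or several. P-values therefore measure only the spread between dishes, which may be technical.

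PIWI proteins bind small RNAs called piRNAs and with them silence transposons in the germ line, by cutting their transcripts and by guiding DNA methylation to their promoters in fetal male germ cells. The proteins made from this pathway's genes gather in granules beside mitochondria, where Tudor domain proteins hold PIWI proteins, helicases and membrane anchors together. In mice many of these genes carry CpG-rich promoters that are methylated in somatic tissues and unmethylated in germ cells, and TET enzymes oxidise the methyl groups on such cytosines.

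The arrays measured RNA and not methylation, so the promoters are given here for their letters alone. RefSeq promoter windows (build GRCm38.p6, 250 bases before to 50 bases after a start) were found for 9 of the 10 genes, in 12 windows. These windows held a median of 22 CpG sites, with a range of 3 to 38, against a median of 7 in all 32851 windows. The E-box CACGTG, which reads the same on both strands, stood in the windows of 6 genes: Mov10l1, Tdrd9, Stk31, Mael, Ddx4 and Tdrd1. By gene, that is 6 of the 9 with a window, against 8.09% of all genes with a window. By window, the E-box was in 8 of the 12 (66.7%), against 7.15% of all windows. Among the 14281 windows with at least 10 CpG sites the share was 10.9%. The 8 windows are not separate, since overlapping windows of Stk31 and of Tdrd1 hold the same E-box. No E-box was found in the windows of Dazl, Tex101 or Asz1. The E2F-type motif GCGGGAA, searched on both strands as GCGGGAA and TTCCCGC, was found in Ddx4 only, where it did not overlap the E-box, and in 4.6% of all windows. Of the 5 tested genes with the E-box, 4 were lower and 1 was higher. Of the 2 tested genes with a window and no E-box, Tex101 was lower and Dazl did not pass. This split was not tested. The stretches below show the E-box, in capitals, in 4 genes that fell, in Ddx4 and in Tdrd1, and the promoter of Dazl, which has none. The promoter of Tex101, which fell and has none either, is not printed. Only bases outside the transcribed part are printed, or 30 bases around the motif, each 5′ to 3′ on the strand of the gene.
Mov10l1, chr15:88982744-88982890, plus strand: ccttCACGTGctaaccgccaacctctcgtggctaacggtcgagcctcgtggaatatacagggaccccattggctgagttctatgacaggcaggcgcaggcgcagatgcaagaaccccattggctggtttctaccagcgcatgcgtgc
Tdrd9, chr12:111971309-111971487, plus strand: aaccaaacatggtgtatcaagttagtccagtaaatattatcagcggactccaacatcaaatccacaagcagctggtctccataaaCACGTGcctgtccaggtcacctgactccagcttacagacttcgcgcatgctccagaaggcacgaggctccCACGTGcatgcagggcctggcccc
Stk31, chr6:49395289-49395505, plus strand: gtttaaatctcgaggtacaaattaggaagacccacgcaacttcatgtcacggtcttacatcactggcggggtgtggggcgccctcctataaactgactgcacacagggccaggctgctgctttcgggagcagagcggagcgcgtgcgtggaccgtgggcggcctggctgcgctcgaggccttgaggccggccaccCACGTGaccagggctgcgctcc
Mael, chr1:166238745-166238994, minus strand: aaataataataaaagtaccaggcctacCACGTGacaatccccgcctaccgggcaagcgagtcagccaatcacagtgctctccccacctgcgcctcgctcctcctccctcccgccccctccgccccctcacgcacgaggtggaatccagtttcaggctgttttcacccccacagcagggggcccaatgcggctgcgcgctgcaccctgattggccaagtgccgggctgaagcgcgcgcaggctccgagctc
Ddx4, chr13:112652322-112652351, minus strand: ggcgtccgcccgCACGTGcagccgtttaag
Tdrd1, chr19:56826186-56826215, plus strand: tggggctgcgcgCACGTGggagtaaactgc
Dazl, chr17:50293621-50293870, minus strand: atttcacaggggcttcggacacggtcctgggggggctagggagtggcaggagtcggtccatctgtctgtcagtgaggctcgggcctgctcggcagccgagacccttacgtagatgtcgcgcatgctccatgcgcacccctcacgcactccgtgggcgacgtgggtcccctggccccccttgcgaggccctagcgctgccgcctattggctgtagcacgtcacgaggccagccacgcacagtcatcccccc
Distances were counted to the RefSeq start of each gene's most upstream window. The E-box lay 246 bases before it in Mov10l1, 223 in Mael, 55 in Stk31, 29 in Ddx4 and 11 in Tdrd1. In Tdrd9 the distances were 165 and 95 bases. In all of these but Mael, the annotated gene opened further upstream than that start. The E-boxes of Ddx4 and Tdrd1 lay inside the annotated gene, and the others lay outside it. A match is a description of the letters and does not show that a protein binds there.

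The level of a probe on an array is its processed signal on the log2 scale after subtracting the 75th percentile over that array's spots, so that 0 is the brightness which 75% of spots lay under. The 75th percentile itself lay between 385.1 and 414.2 intensity units on the TKO arrays and between 366.7 and 398.4 on the WT arrays, from 51.9% to 58.5% of spots passed the scanner's test for standing well above background, and saturation was found in 0 spots. All arrays shared 1 slide, on which TKO replicate 1 lay in row 1 with the 3 WT arrays and TKO replicates 2 and 3 lay in row 2. Values within row 1 therefore set a single TKO array against 3 WT arrays, with the spread taken from the WT arrays alone, and are given without a test. The row 2 arrays had the smallest shares of spots well above background, at 51.9% and 52.2%, against 54.9% to 58.5% in row 1. In the check of the labels, the brightest Tet1 probe fell by 1.37 ± 0.044 and the brightest Tet2 probe fell by 2.94 ± 0.054 in TKO cells (log2, SE, adjusted p = 9.70e-06 and 2.79e-06). Another Tet2 probe, also well above background on all 6 arrays, did not pass (-0.44 ± 0.194, adjusted p = 0.107). The one testable Tet3 probe did not pass (-0.24 ± 0.098, adjusted p = 0.0845), and the altered exons are not named in the labels, so a probe that lies outside them would check nothing. At an adjusted p under 0.05, 59.7% of all tested genes were called, 29.7% higher and 29.9% lower in TKO cells. Centring each array on its median instead gave 29.4% of calls as higher, against 49.8% here, and gave a median difference over all genes of -0.20, against -0.012 here. Of 10 ES cell markers, 10 were well above background on every array.

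Among the 8 tested genes, 5 were lower (background 29.9%), 1 was higher (background 29.7%) and 2 did not pass. The 6 calls in either direction stand near the background of 59.7%, and so do the 6 genes whose TKO and WT values did not overlap, against 67.6% of all tested genes, so neither count sets these genes apart. Their median difference was -0.51 on the log2 scale, against -0.012 over all tested genes. Tdrd9 passed the filter on dim probes through its WT arrays alone, so the filter favoured a fall in advance. It lends no support to these counts or to this median, which includes it. In bulk RNA, fewer cells of a type and less RNA per cell cannot be told apart.

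**Figure D1:**
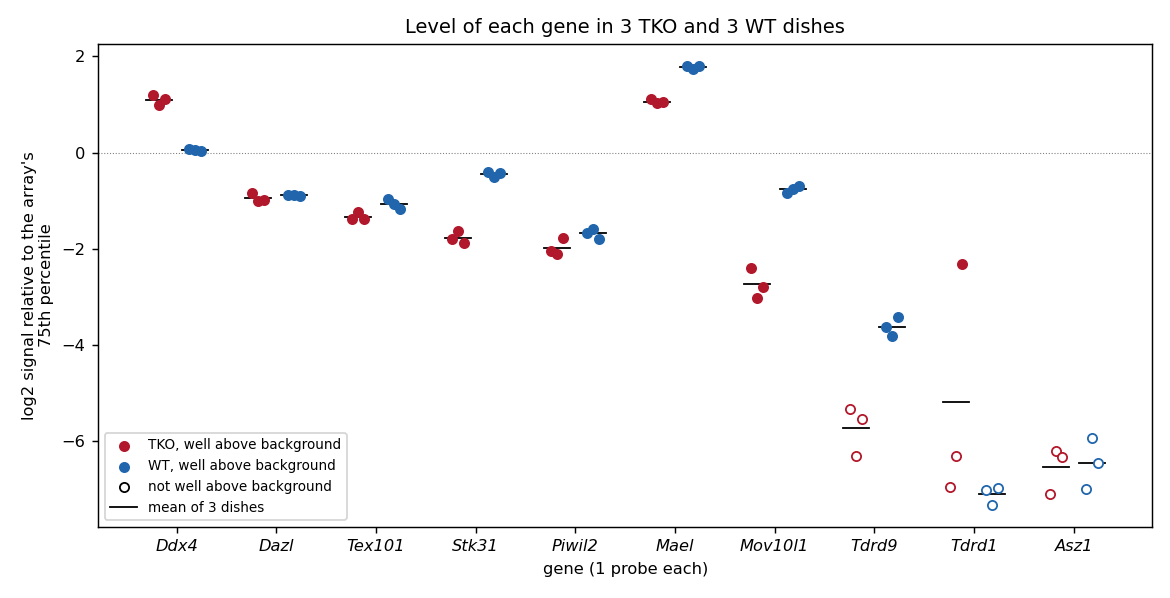
Log2 signal relative to the array's 75th percentile (y axis) for the single probe of each of the 10 genes (x axis), with TKO dishes in red left of WT dishes in blue, open circles for spots not well above background, and a bar at the mean of 3 dishes. Ddx4 is the gene with all TKO dishes above all WT dishes among those tested, Mov10l1, Stk31 and Mael have all TKO dishes well below WT, and Tdrd1 has 1 bright TKO dish.

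Mov10l1, the RNA helicase that binds piRNA precursor transcripts and starts their processing, showed the largest measured fall of the genes that were bright in both groups. Its probe (chr15:88884717-88884776, mm9, plus strand) read -2.41, -3.02 and -2.79 in the 3 TKO dishes, against -0.84, -0.76 and -0.69 in the WT dishes. Every TKO dish lay more than a log2 unit below every WT dish. The difference was -1.97 ± 0.158 (SE, adjusted p = 0.000172), which left 25.5% of the WT level, and only 1.80% of all tested genes lay lower. Within row 1 the difference was -1.64.

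Mael encodes Maelstrom, a granule protein needed for transposon silencing in the male germ line. It was bright in both groups, at 1.11, 1.02 and 1.05 in TKO dishes and 1.79, 1.74 and 1.80 in WT dishes (chr1:168131583-168131642, mm9, minus strand). The dishes of each group lay close together and the groups did not overlap. The fall was -0.72 ± 0.041 (adjusted p = 4.93e-05), and -0.67 within row 1.

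Piwil2, also called Mili, encodes the PIWI protein that binds primary piRNAs in fetal and adult male germ cells. Its probe (chr14:70772497-70772556, mm9, minus strand) read -2.05, -2.10 and -1.78 in TKO dishes and -1.67, -1.59 and -1.79 in WT dishes. TKO replicate 3 overlapped the WT dishes, while the other TKO dishes lay below them. The difference of -0.30 ± 0.103 had an adjusted p of 0.0509 and a 95% interval of -0.55 to -0.040, so Piwil2 was not called. It passed under 6 of 15 alternative treatments of the data, with adjusted p between 0.00868 and 0.0396 in those 6, and reached -0.49 with median centring. Within row 1 the difference was -0.37.

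Asz1, a membrane-anchored partner of the granules beside mitochondria, was not well above background on any of the 6 arrays. Its spot read -7.10, -6.20 and -6.34 in TKO dishes and -6.99, -5.93 and -6.45 in WT dishes, so neither group gives a level. The file gives its probe a span of 16484 bases (chr6:18005508-18021991, mm9, minus strand), which is longer than the 60 bases of most probes here and so joins separate stretches of the genome.

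The Tudor domain proteins bind methylated arginines of PIWI proteins. Tdrd9, a Tudor domain helicase that works with PIWI proteins in fetal male germ cells, read -5.33, -6.32 and -5.54 in TKO dishes and -3.62, -3.81 and -3.43 in WT dishes (chr12:113305826-113305885, mm9, plus strand). It was well above background on 0 of 3 TKO arrays and on 3 of 3 WT arrays, and the groups did not overlap. Only a bound can be given on that account. On the processed signal, Tdrd9 was at least 2.24-fold lower in TKO cells (adjusted p = 0.00117 from a fit on TKO spots not above background). The bound sets the WT mean against the mean, over the TKO arrays, of the lowest signal among probes well above background. With normexp background correction the fitted difference was smaller, at -0.49, still past the threshold, so the bound holds for the processed signal only. The mean signal was 48.1 to 55.8 in TKO dishes, over local backgrounds of 22 to 27. In WT dishes it was 73.1 to 81.3, over local backgrounds of 24 to 27.

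Tdrd1, a Tudor protein that binds Piwil2 protein in mice, was dim everywhere but in 1 dish. It read -6.95, -6.31 and -2.33 in TKO dishes and -7.03, -7.33 and -6.98 in WT dishes. In TKO replicate 3 the spot had a mean signal of 130.3 over a local background of 30, carried no outlier flag and was well above background. In the other 5 dishes it was not. With 1 bright array Tdrd1 was not tested, and without any filter on dim spots its difference did not pass (1.92 ± 1.29, adjusted p = 0.298). A single probe spot on each array (span of 482 bases, chr19:56940470-56940951, mm9, plus strand) leaves no second spot to set beside it.

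Stk31 encodes a protein with a Tudor domain and a kinase-like domain that is made mainly in testis. It read -1.80, -1.64 and -1.89 in TKO dishes, against -0.40, -0.52 and -0.42 in WT dishes (chr6:49397301-49397360, mm9, plus strand). All TKO dishes lay more than a log2 unit below all WT dishes. The difference was -1.33 ± 0.075 (adjusted p = 4.57e-05), or 39.8% of the WT level, with 4.14% of tested genes lower. Within row 1 it was -1.35.

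Tex101, a germ cell surface glycoprotein needed for sperm to reach the egg in mice, showed a small fall. Its probe (chr7:25453040-25453099, mm9, minus strand) read -1.37, -1.25 and -1.38 in TKO dishes and -0.97, -1.08 and -1.17 in WT dishes. The highest TKO dish lay just below the lowest WT dish. The difference was -0.26 ± 0.070 (adjusted p = 0.0211), and -0.45 with median centring. The call was lost without TKO replicate 1, without TKO replicate 3, without WT replicate 1 and without WT replicate 2, with adjusted p between 0.0523 and 0.0650. It was also lost without the filter on dim probes (adjusted p = 0.0545). Within row 1 the difference was -0.30.

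Ddx4 and Dazl are RNA-binding regulators that mark germ cells themselves. Ddx4, a DEAD-box helicase of the germ granules, read 1.19, 1.00 and 1.11 in TKO dishes, against 0.066, 0.052 and 0.031 in WT dishes (chr13:113388616-113388675, mm9, minus strand). All TKO dishes were higher than all WT dishes, and the WT dishes were nearly equal. The difference was 1.05 ± 0.058 (adjusted p = 4.38e-05), and 7.19% of tested genes lay higher. Within row 1 it was 1.14.

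Dazl, which binds germ cell messenger RNAs and promotes their translation, read -0.83, -1.0 and -0.98 in TKO dishes and -0.88, -0.88 and -0.90 in WT dishes (chr17:50418923-50418982, mm9, minus strand). The groups overlapped, with TKO replicate 1 the highest dish and TKO replicate 2 the lowest. The difference was -0.05 ± 0.055 with a 95% interval of -0.19 to 0.087 (adjusted p = 0.467). Within row 1 it was 0.057. The RefSeq window of its promoter, printed above, held 28 CpG sites and no E-box.

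The genes around each of these loci give the local level against which a difference can be read. Tested genes within 2.5 Mb on each side of Mov10l1 had a median difference of -0.094 (47 genes), those around Stk31 -0.11 (69 genes), those around Mael -0.023 (40 genes) and those around Tdrd9 -0.088 (94 genes). Around Ddx4 the median was 0.061 (34 genes). These medians were all close to 0 beside the differences of the genes themselves. The medians around Dazl, Tex101 and Piwil2 lay between -0.025 and -0.0029 (29, 81 and 45 genes).

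**Figure D2:**
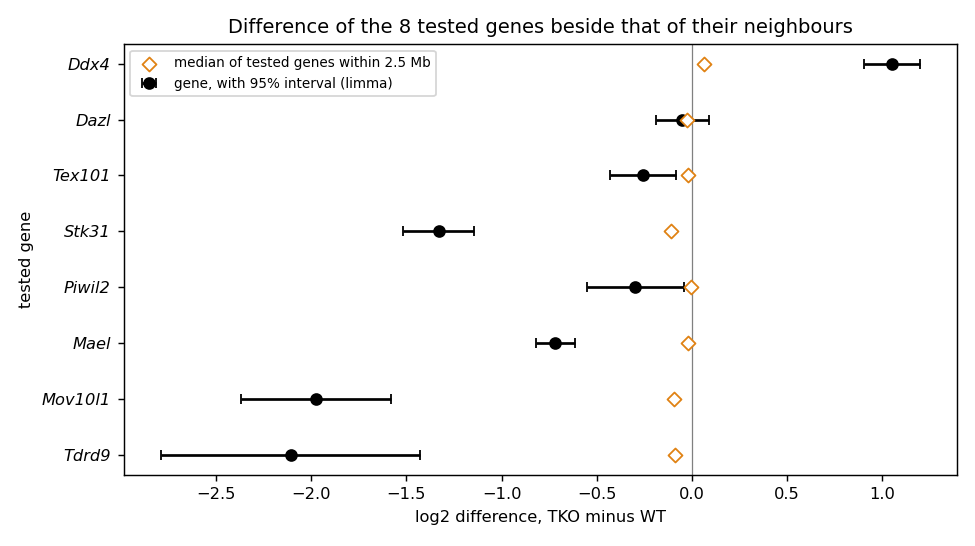
Log2 difference, TKO minus WT (x axis), of the 8 tested genes (y axis) with the 95% interval from limma (black), and the median difference of tested genes within 2.5 Mb on each side (open diamonds). Ddx4 lies at 1.05, Mov10l1 at -1.97 and Stk31 at -1.33, while the neighbour medians lie between -0.11 and 0.061. The Tdrd9 point is the fitted value, for which only a bound of 2.24-fold, on the processed signal, can be claimed.

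Calls in the rest of the piRNA pathway went both ways. Of 24 other tested genes, 10 were lower (background 29.9%), 6 were higher (background 29.7%) and 8 did not pass, with a median of -0.14. The largest falls were in Fkbp6 (-1.65 ± 0.069, adjusted p = 1.64e-05), a co-chaperone that acts when PIWI proteins are loaded, in Gpat2 (-1.46 ± 0.084), a mitochondrial membrane protein that binds Piwil2 protein, in Gtsf1 (-1.31 ± 0.040), a zinc finger partner of PIWI proteins, and in Exd1 (-0.89 ± 0.061). Fkbp6 read -0.86, -0.76 and -0.98 in TKO dishes, against 0.76, 0.75 and 0.86 in WT dishes. Tdrd12, a Tudor domain helicase needed for secondary piRNAs, rose by 2.38 ± 0.053 (adjusted p = 2.90e-06) and read 2.87, 2.82 and 2.87 in TKO dishes, against 0.43, 0.57 and 0.43 in WT dishes. Tdrd5 (1.42 ± 0.163), Tdrd7 (0.50 ± 0.081) and Pld6 (0.46 ± 0.063), the mitochondrial protein whose fly counterpart is the nuclease Zucchini, were higher too. Piwil1, which encodes another PIWI protein, was well above background on 0 TKO arrays and 3 WT arrays and did not pass (adjusted p = 0.116), and Piwil4 was too dim to test.

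Of 25 other tested germline genes silenced in somatic cells, 16 were lower (background 29.9%), 4 were higher (background 29.7%) and 5 did not pass. The median was -0.36. Among the 16, Slc25a31 was well above background on 0 TKO arrays and 3 WT arrays, so the filter favoured a fall in advance. Luzp4 was so on 1 TKO array and 3 WT arrays. With probes required to be well above background on all 6 arrays, 13 were lower and 4 higher. Large falls were in Rpl10l, Stag3 and D1Pas1, between -3.40 and -2.15. Tex12, a synaptonemal complex gene, was also lower, with 1 of 3 TKO arrays and 3 of 3 WT arrays well above background, so the size of its fall is uncertain. Sycp1 (1.63 ± 0.078), Stra8 (0.93 ± 0.075), Hormad1 (0.65 ± 0.065) and Brdt (0.55 ± 0.102) rose. Sycp1 and Hormad1 act in meiotic chromosome pairing, Stra8 in the entry into meiosis and Brdt in spermatids.

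Genes of germ cell specification and germline RNA binding, other than Dazl and Ddx4, numbered 21 tested. Of these, 14 rose (background 29.7%), 5 fell (background 29.9%) and 2 did not pass, with a median of 0.29. With median centring 9 rose and 6 fell. Dppa3, the maternal factor also called Stella, rose by 5.72 ± 0.082, and Sohlh1, a transcription factor of early germ cells, by 1.91 ± 0.149. Cpeb1, which controls translation in oocytes, rose by 1.74 ± 0.049. Nobox, an oocyte homeobox gene, was well above background on 3 TKO arrays and 0 WT arrays. It passed the filter on dim probes through the TKO arrays alone. On the processed signal, Nobox was at least 5.84-fold higher in TKO cells (adjusted p = 0.00261 from a fit on WT spots not above background). Sohlh2, the partner of Sohlh1, fell by 3.22 ± 0.051 (adjusted p = 1.44e-06), to -0.70, -0.71 and -0.82 in TKO dishes, against 2.43, 2.47 and 2.52 in WT dishes. Prdm14 (-0.77 ± 0.052), a regulator of primordial germ cells that is also active in ES cells, and Nanos1 (-0.51 ± 0.091) fell as well.

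**Figure D3:**
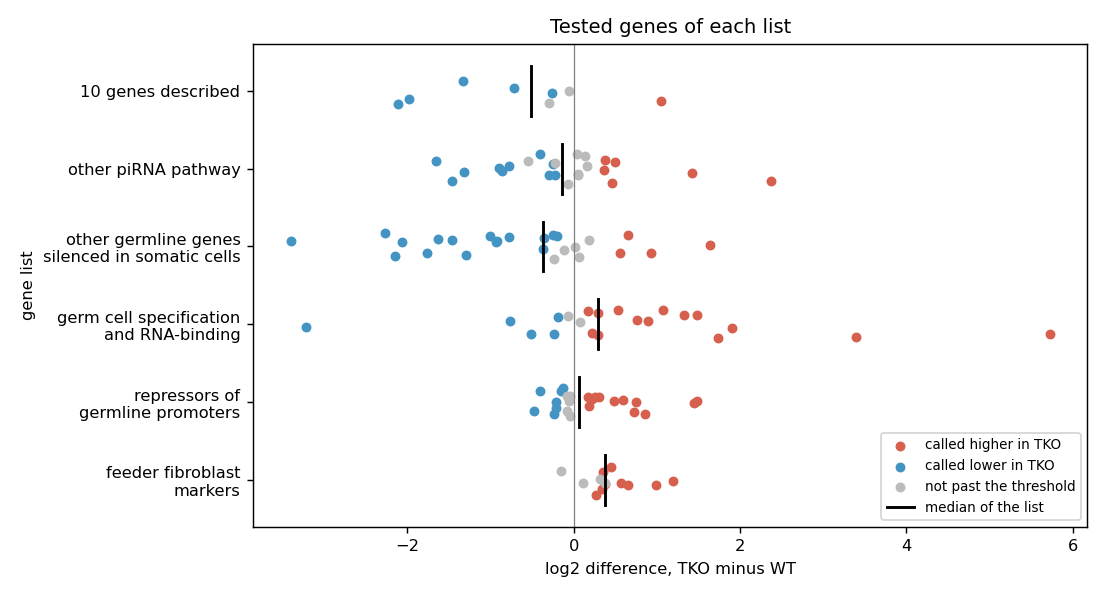
Log2 difference, TKO minus WT (x axis), of every tested gene in 6 gene lists (y axis), coloured by call, with a bar at each list's median. The medians are -0.51 for the 10 genes described (8 tested), -0.14 for other piRNA genes, -0.36 for other silenced germline genes, 0.29 for germ cell specification genes, 0.069 for repressors and 0.38 for feeder fibroblast markers.

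Proteins that repress germline promoters were measured on the same arrays. Many of these promoters are bound in ES cells by a Polycomb complex that holds MGA and MAX, which recognise E-boxes, and E2F6, and they are methylated by DNMT3A and DNMT3B. Of 24 such genes, 12 were higher (background 29.7%), 7 were lower (background 29.9%) and 5 did not pass, with a median of 0.069. Dnmt3b (1.48 ± 0.059), Dnmt3a (1.45 ± 0.037), Mga (0.86 ± 0.048) and Hdac1 (0.75 ± 0.053) had the largest rises. Tfdp1 (-0.47 ± 0.047), Wdr5 (-0.40 ± 0.038), Kdm5c (-0.24 ± 0.033) and Max (-0.21 ± 0.055) had the largest falls. Centring on the median moved this list to 7 higher and 11 lower, so which way most of this list went depends on the scaling.

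Markers of feeder fibroblasts and of ES cells also differed between the groups, for the most part in opposite directions. Of 13 tested feeder fibroblast markers, 9 rose (background 29.7%), 0 fell (background 29.9%) and 4 did not pass. With median centring 4 of these feeder markers rose and 0 fell. Those that rose include Acta2 (1.20 ± 0.059), Col3a1 (0.66 ± 0.221) and Col1a1 (0.57 ± 0.048). The summed level of the 14 markers, on the linear scale relative to the array's 75th percentile, was 53.7 to 56.1 in TKO dishes and 36.6 to 37.4 in WT dishes. A linear sum leans on its brightest genes, here among them Acta2, with a mean log2 level of 2.8 in WT and 4.0 in TKO dishes. Of the 14, 13 were well above background on every array and Lum was on none. ES cell markers had 6 lower (background 29.9%), 2 higher (background 29.7%) and 2 not passing of 10. Their summed level was 639.9 to 693.2 in TKO dishes and 893.2 to 964.3 in WT dishes. This sum also leans on its brightest genes. Among them is Zfp42, with a mean log2 level of 7.49 in WT and 3.42 in TKO dishes, so the sum does not show a fall shared by all markers. Zfp42 (-4.07 ± 0.047), Tdgf1 (-1.06 ± 0.044), Esrrb (-0.49 ± 0.048) and Pou5f1 (-0.42 ± 0.102) had the largest falls in that list. The part of either set in the differences of Mov10l1, Stk31, Tdrd9, Mael, Tex101 and Ddx4 was not tested.

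**Figure D4:**
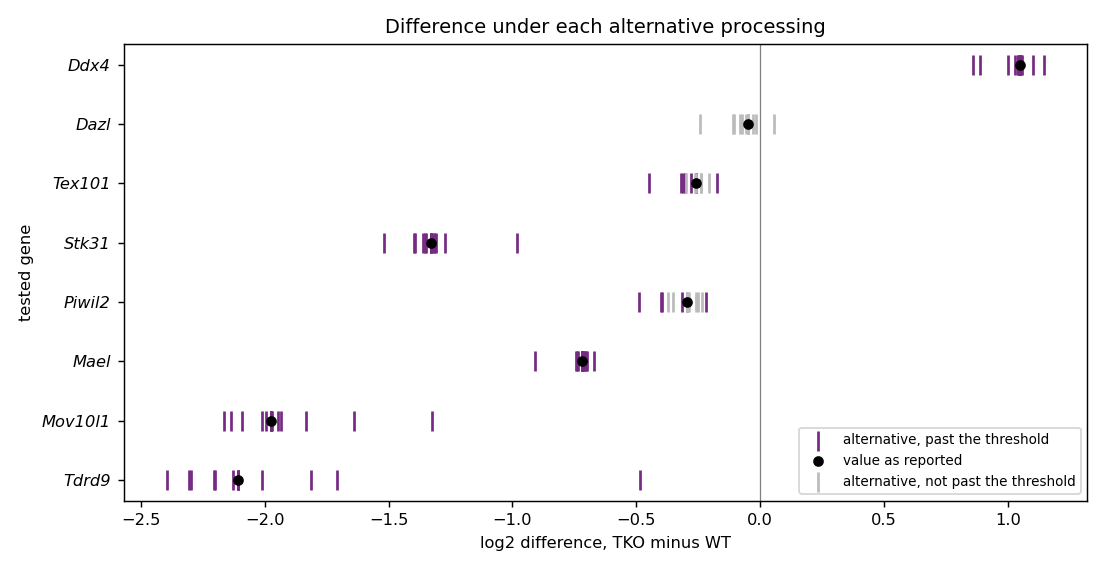
Log2 difference, TKO minus WT (x axis), of the 8 tested genes (y axis) as reported (black points) and under each alternative treatment of the data (vertical ticks, purple where past the threshold and grey where not). Row 1 alone has a single TKO array and is left aside in what follows. Ddx4, Stk31, Mael, Mov10l1 and Tdrd9 pass under every other alternative that gave a value. Of the 15 alternatives, Tex101 passes under 9 and Piwil2 under 6, and row 1 alone is not among these.

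Across 15 alternative treatments, the difference of Ddx4 stayed between 0.86 and 1.14 and that of Mael between -0.91 and -0.67. Stk31 stayed between -1.52 and -0.98 and Mov10l1 between -2.16 and -1.32. The 1.14 of Ddx4 and the -0.67 of Mael came from row 1 alone, which has a single TKO array and is given without a test. Under every other alternative, Ddx4, Mael, Stk31 and Mov10l1 were past the threshold. In each alternative other than row 1 alone, between 4 and 6 of the genes were called lower and 1 was called higher. The background moved as well. Over all tested genes, 6454 of 21562 were called lower as reported. That count was 9315 of 21562 with median centring and 5602 of 34650 without a filter on dim probes.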

How the data were processed

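RNA of 6 dishes was hybridised in 1 colour (Cy3) to Agilent arrays. Per the file headers, the deposited scanner output holds each spot's processed signal, mean signal and local background as intensity values on a linear scale. It also holds flags of 0 or 1 (another unit, other). The processed signal is already background-subtracted within the array, while the mean signal is not. None of these values is scaled between arrays. The software was Agilent Feature Extraction 11.5.1.1, per the submitters' processing notes. The authors also deposited a table of log2 values. Set against the scanner values, each column equalled the processed signal on the log2 scale plus 1 constant per array, within 0.005 for 100% of probes, with a 75th percentile of 0 and medians of -3.9, -3.74 and -3.82 for TKO and -3.97, -3.97 and -4.03 for WT arrays. Its normalization is not given in the sources used here.

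Control spots and outlier spots were left out, spots of a probe were averaged, and the 75th percentile of log2 processed signal was subtracted. Probes well above background on at least 3 of 6 arrays were kept (30734), and the brightest kept probe stood for each gene name. TKO was tested against WT in limma 3.58.1 under R 4.3.3 (two-sided, lmFit then eBayes), with Benjamini-Hochberg adjustment over all tested genes and a threshold of 0.05. An adjusted p for a Tet probe was adjusted over all kept probes. The script was tested on simulated data. The number of arrays limits the precision. Bounds set the bright group's mean against the mean, per array of the dim group, of the lowest signal among probes well above background (or the dim probe's own, where higher). They hold for the processed signal only.

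Every member was named, with up to 4 rises and 4 falls of each other list; not all genes named by that rule are reported. The members and lists were chosen with earlier results of these data known. Gene names come from the array files. Probe positions are mm9 per the file headers and promoter positions GRCm38.p6; probes were not placed in exons, since no mm9 annotation was used here. Alternatives were normexp background correction (offset 50), median centring, quantile normalization, other filters on dim probes, the mean of kept probes, replicate number as a block, array row 1 alone, the deposited table, and leaving out each array.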

Additional observations from a re-analysis of the deposited data

How the results depend on the processing

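The precision of each value rests on 3 dishes a group and 1 probe a gene, and signal over background limits Tdrd9, Tdrd1 and Asz1. Median centring moved the count of all tested genes called higher to 3874, against 6414 as reported. In array row 1 alone, with a single TKO array, the difference of Dazl turned to 0.057. The causes were not tested. With the replicate number as a block, 5857 genes were called higher and 5789 lower, and among the 10 genes 1 higher and 5 lower, the same counts as reported. Same-numbered dishes did not deviate together (r of -0.069, -0.024 and 0.0063), and 1 of 3 TKO dishes correlated best with the WT dish of its own number. Leaving out 1 dish at a time gave 11532 to 12469 called genes in all, against 12868, and 4 to 5 of the 10 genes called lower. Piwil2 passed with normexp (-0.22), median centring (-0.49), quantile normalization (-0.40), the filter on all 6 arrays (-0.30), the deposited table (-0.32) and without TKO replicate 3 (-0.40). With normexp the fitted difference of Tdrd9 was -0.49, and the filter on all 6 arrays left Tdrd9 out. Among the lists, median centring moved germ cell specification genes to 9 higher and feeder markers to 4 higher. Repressors called lower numbered 4 to 11, and ES cell markers called higher 0 to 2, over the alternatives other than row 1 alone.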

Other observations

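The E-box CACGTG was also counted in the RefSeq promoter windows of the other lists, by gene. It stood in 6 of 18 other piRNA pathway genes with a window (33.3%), in 10 of 23 other silenced germline genes (43.5%) and in 5 of 15 germ cell specification genes (33.3%), against 1290 of all 11416 tested genes with a window (11.3%). Over all tested genes, those with the E-box had 34.0% lower and 35.2% higher, and those without it 31.7% lower and 33.0% higher, with medians of -0.009 and 0.001. In the germ cell specification list, 4 of the 5 genes with the E-box were higher and 0 were lower, while in the other piRNA list 4 of 6 were lower and 1 was higher. In the silenced germline list 4 of 10 genes with the E-box were lower, against 11 of 13 without it. None of these splits was tested.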
